A study of Mus musculus with 9 samples.

Results

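The genes described are the proteasome subunit genes and their close companions, chosen by name alone: every probe whose platform symbol starts with Psma, Psmb, Psmc or Psmd and a digit, without the immunoproteasome genes Psmb8, Psmb9 and Psmb10. The rule took 66 of 45281 probes on the array, for 37 of 19057 named genes. By role, 16 of them encode subunits of the core particle, 17 encode subunits of the regulatory particle and 3 (Psmd5, Psmd9 and Psmd10) encode chaperones that help assemble the regulatory particle. The remaining gene, Psmc3ip, shares the letters but not the function: its product, also called Hop2, pairs homologous chromosomes in meiosis, and it is given apart.

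Gene expression was measured on 9 single-colour Illumina arrays of C57BL/6 mouse cells, 3 arrays in each of 3 groups. The groups are putative female germ cells (PFGC) collected by magnetic sorting, oocytes collected the same way, and cultured spermatogonial stem cells (SSC), from which sperm production is renewed. The series is titled as a study of SSC differentiating into putative female stem cells. The labels name no antibody for the sort, no age of the animals and no treatment that all groups share. The origin of the replicates, from 1 culture or animal or from several, is not stated either, and the p-values therefore cover the spread between these arrays alone, which may be technical. SSC were cultured and the other groups sorted, so handling and cell type cannot be told apart in either comparison with SSC.

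The proteasome is the protease that degrades proteins tagged with ubiquitin. Its core particle is a barrel of stacked rings, in which alpha subunits (Psma) form the gate and beta subunits (Psmb) hold the cutting sites. The regulatory particle caps the barrel: a ring of ATPases (Psmc) unfolds the substrate, and non-ATPase subunits (Psmd) bind ubiquitin and remove it. Subunits assemble in fixed proportions, and in germ cells a few are exchanged for variants, such as Psma8 in spermatocytes in place of Psma7.

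The promoter letters of 4 subunit genes that were lower in oocytes than in SSC are shown because each holds a motif that other studies link to proteasome or housekeeping genes. They are RefSeq sequences of build GRCm38.p6, from 250 bases before to 50 after the start of transcription, written 5′ to 3′ on the strand of the gene, with the motif in capitals. The 4 windows are chr9:54950609-54950908 (plus strand, Psma4), chr14:54617946-54618245 (minus strand, Psmb5), chr11:106255935-106256234 (plus strand, Psmc5) and chr7:140882144-140882443 (plus strand, Psmd13).
Psma4: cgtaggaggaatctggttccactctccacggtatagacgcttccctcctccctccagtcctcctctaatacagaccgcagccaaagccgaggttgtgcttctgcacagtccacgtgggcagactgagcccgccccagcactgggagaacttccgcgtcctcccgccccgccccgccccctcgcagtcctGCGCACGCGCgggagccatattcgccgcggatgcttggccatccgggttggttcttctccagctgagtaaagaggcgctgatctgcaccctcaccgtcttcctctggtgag
Psmb5: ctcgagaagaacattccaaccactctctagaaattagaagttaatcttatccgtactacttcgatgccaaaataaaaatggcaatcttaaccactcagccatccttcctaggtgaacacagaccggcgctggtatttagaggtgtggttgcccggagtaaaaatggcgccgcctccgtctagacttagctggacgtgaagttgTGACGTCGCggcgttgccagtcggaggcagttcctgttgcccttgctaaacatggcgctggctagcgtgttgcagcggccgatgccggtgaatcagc
Psmc5: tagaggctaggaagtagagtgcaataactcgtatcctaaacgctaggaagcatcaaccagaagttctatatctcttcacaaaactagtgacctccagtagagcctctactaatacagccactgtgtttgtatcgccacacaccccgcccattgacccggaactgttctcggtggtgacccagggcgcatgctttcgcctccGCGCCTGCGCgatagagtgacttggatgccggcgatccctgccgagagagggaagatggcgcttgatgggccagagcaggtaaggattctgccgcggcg
Psmd13: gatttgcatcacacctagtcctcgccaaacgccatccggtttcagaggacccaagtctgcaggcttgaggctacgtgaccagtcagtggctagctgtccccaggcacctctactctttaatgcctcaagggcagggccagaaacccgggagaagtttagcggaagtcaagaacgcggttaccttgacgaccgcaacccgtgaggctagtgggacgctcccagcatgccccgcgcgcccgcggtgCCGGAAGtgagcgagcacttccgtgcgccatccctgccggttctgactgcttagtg

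Psmb5 holds the antioxidant response element TGACNNNGC, the letters through which the factor Nfe2l1 is known to act on proteasome genes. Psma4 and Psmc5 hold the motif of nuclear respiratory factor 1, on the minus and the plus strand of the window, and Psmd13 holds the ETS letters CCGGAAG across its start. Motifs were searched on both strands in the 32 windows found for 30 of the 37 genes. The ETS letters were in 12 of 32 windows (37.5%), against 8.86% of all 32851 promoter windows of that length. The motif of nuclear respiratory factor 1 was in 6 (18.8%), against 4.6% of all windows. The antioxidant element was in 5 (15.6%, against 12.4%), those of Psmb5, Psmb6, Psmc6, Psmd9 and Psmd12. CCAAT was in 13 (40.6%, against 37.4%). TGACGTCA, which could share bases with the antioxidant element, was in 0 of 32, against 1.79% of all windows. The 4 windows shown were picked for a motif and a lower level together. Of the measured genes with the motif of nuclear respiratory factor 1, Psma4 and Psmc5 were called lower in oocytes than in SSC. Psma2, Psmc4 and Psmd14 were not. Of those with the ETS letters, Psmd13 and Psmc3ip were called lower and the other measured genes were not. A match here is a description of letters and not a site of binding.

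Of the 37 genes, 31 had a probe that passed the detection filter (detection p under 0.01 on at least 3 of 9 arrays) and 6 did not. The 6 are the alpha subunits Psma1, Psma3 and Psma6, the ATPase gene Psmc6, the lid gene Psmd3, and Psmb11, the beta subunit of the thymus. Their 8 probes were detected on 0 of 9 arrays, with signals of 81.8 to 117.5. All but Psmb11 encode obligate subunits, and a probe at background does not show that its transcript is low. For Psma5, a probe detected on 0 of 9 arrays had signals of 99.5 to 114.7. The Psma5 probe that was used had signals of 7924 to 10680. Whether the 8 probes failed or their transcripts were scarce was not tested. Of the 66 probes 51 passed, and 30 of the 31 genes were detected on all 9 arrays by the probe used. Each gene was represented by its brightest passing probe. Levels are log2 values after background correction and quantile normalization, and they compare groups within a gene, not genes with each other.

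Between 17631 and 18919 probes were detected per array. Across the 11077 genes tested, replicate arrays correlated at 0.986 to 0.993 in PFGC, 0.988 to 0.995 in oocytes and 0.973 to 0.986 in SSC. The labels were set against defining markers. All 10 oocyte markers were detected on every PFGC and oocyte array, and 6 of them (Zp2, Zp3, Bmp15, Figla, Nlrp5 and Padi6) on 0 of 3 SSC arrays. All 10 markers of undifferentiated spermatogonia were detected on every SSC array, 7 of them on every PFGC array and 5 on every oocyte array. Their summed linear level was 1124 to 1389 in PFGC, 989 to 1112 in oocytes and 3574 to 4310 in SSC. On every SSC array 8 of 8 Sertoli cell markers were detected as well. The summed linear level of the Sertoli markers was 16865 to 26336 in PFGC, 3721 to 4248 in oocytes and 81240 to 85974 in SSC. All 7 granulosa and cumulus cell markers were detected on every PFGC and oocyte array, with sums of 19363 to 21105 in PFGC, 20449 to 22509 in oocytes and 12807 to 15851 in SSC. Of the granulosa and cumulus markers, Foxl2, Nr5a2, Esr2 and Fst were detected on 0 of 3 SSC arrays. Fshr and Amhr2 were lower in oocytes than in SSC (log2 fold changes -1.13 and -1.08) and Inha was higher (1.47). The part of these cell types in the differences described here was not tested.

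Proteasome genes differed little between PFGC and SSC. Of the 31 genes, 7 were lower in PFGC, 0 were higher and 24 were not called (limma, adjusted p under 0.05). The called share was 22.6%, against 52.1% of all 11077 genes (27.6% called lower and 24.5% called higher; 60.6% with the replicate number as a block, against 10 of 31 members). At an unadjusted p under 0.05, 10 of 31 were lower and 0 higher, against 3455 lower and 2967 higher of all 11077 genes. The median log2 fold change was -0.18, with a range of -0.79 to 0.11, against a median of -0.06 over all genes. No member differed by 2-fold or more, whereas 20.2% of all genes did, and 29 of 31 lay within 0.5 log2 units of 0 (93.5%, against 54.1% of all genes). In bulk samples, fewer cells of a type and less RNA per cell cannot be told apart.

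More proteasome genes were called in oocytes against SSC, again all of them lower. There 12 of 31 genes were lower, 0 higher and 19 not called by limma, a called share of 38.7% against 61.7% of all genes (33.1% called lower and 28.6% higher; 68.9% with the block, against 16 of 31 members). At an unadjusted p under 0.05, 14 of 31 were lower and 0 higher, against 3917 lower and 3349 higher of all 11077 genes. The median log2 fold change was -0.27 (range -2.67 to 0.19), against -0.07 over all genes. Of the 31 values 27 were negative, against 5958 of all 11077 genes. Only Psma8 and Psmc3ip among the 31 reached 2-fold (6.45%, against 28.5% of all genes). The comparisons of PFGC and of oocytes with SSC share the SSC arrays.

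Between PFGC and oocytes fewer genes were called than in either comparison with SSC. Of the 31 genes, 4 were higher in PFGC, 0 were lower by limma and 27 were not called, a called share of 12.9% against 12.3% of all genes (7.96% called higher and 4.3% lower; 21.1% with the block, against 5 of 31 members). At an unadjusted p under 0.05, 6 of 31 were higher and 0 lower, against 1758 higher and 1417 lower of all 11077 genes. The median log2 fold change was 0.11, against -0.01 over all genes. Without normalization it was -0.16, against -0.24 over all genes, so the sign of the median depended on the scaling.

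**Figure D1:**
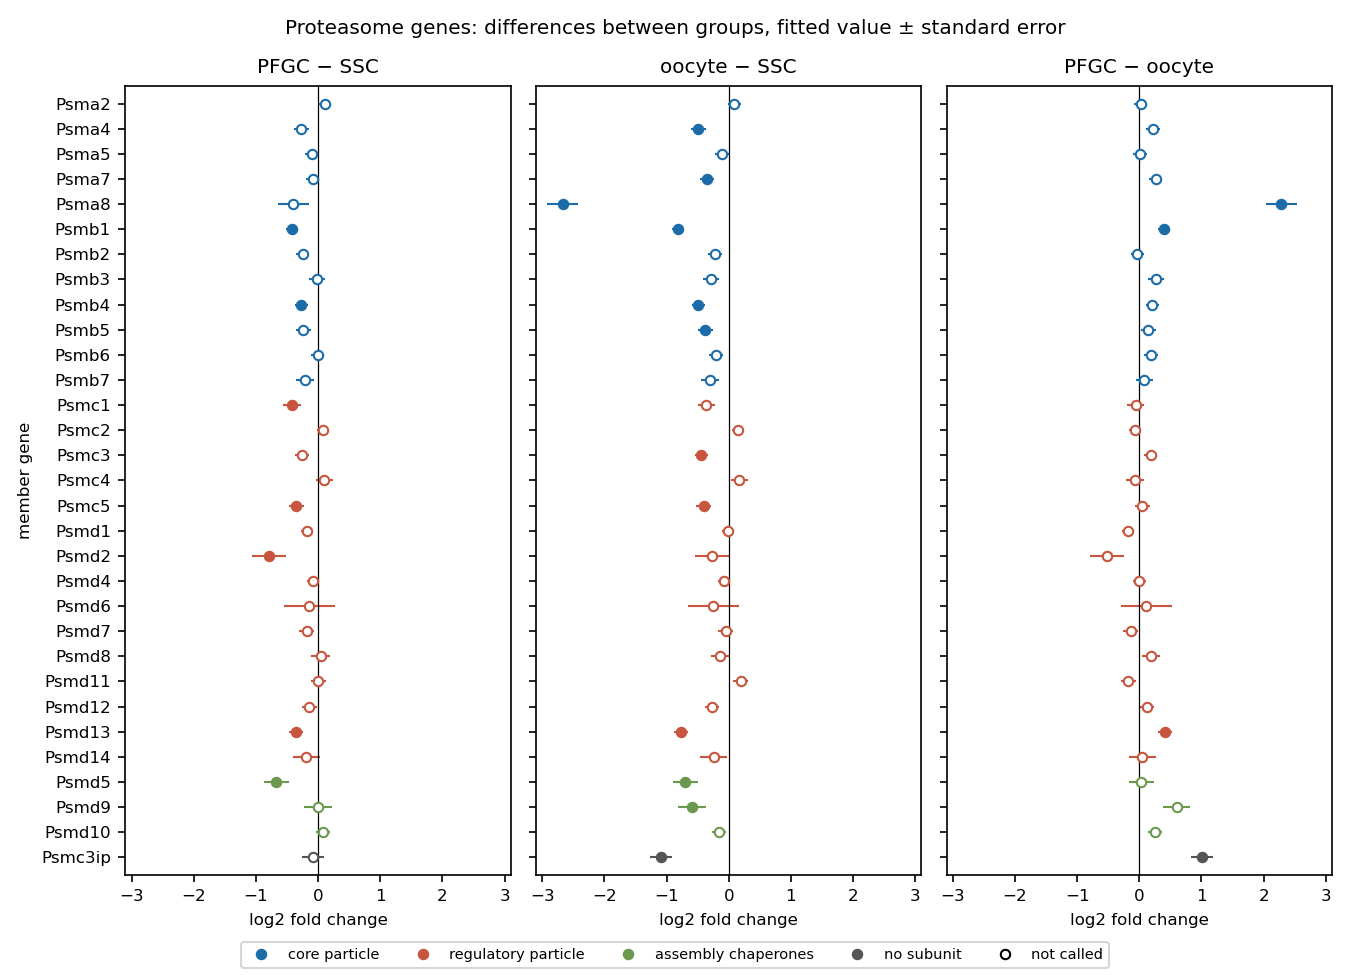
Fitted log2 fold change (x axis) with its standard error for the 31 measured member genes (y axis) in the 3 comparisons, coloured by role, with filled points for called genes and open points for the rest. Most points lie within 0.5 log2 units of 0, and Psma8 and Psmc3ip stand apart in both comparisons with oocytes.

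**Figure D2:**
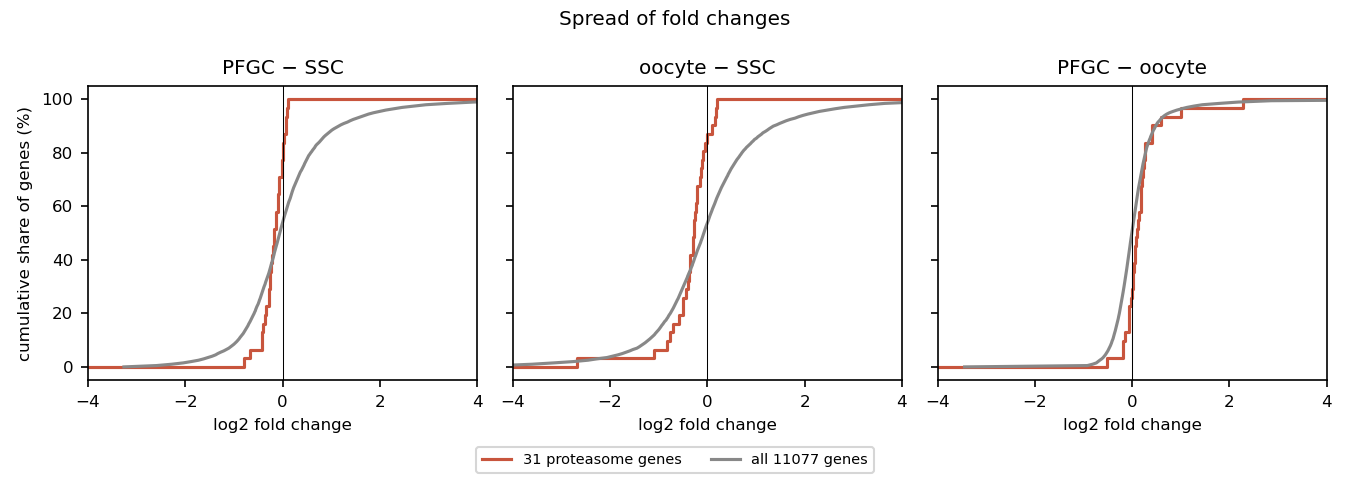
Cumulative share of genes in percent (y axis) by log2 fold change (x axis) for the 31 proteasome genes and for all 11077 genes, in the 3 comparisons. In both comparisons with SSC the proteasome curve is steeper than that of all genes, with medians of -0.18 and -0.27.

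In the core particle, 12 of 16 genes were measured. In PFGC against SSC 2 were lower, in oocytes against SSC 6 were lower, and in PFGC against oocytes 2 were higher, with 0 called in the other direction by limma (0 also at an unadjusted p under 0.05). Over all genes 27.6% were lower, 33.1% lower and 7.96% higher in these comparisons. The median log2 fold changes were -0.23, -0.33 and 0.20. In the regulatory particle, 15 of 17 genes were measured, with 4 lower, 3 lower and 1 higher in the same 3 comparisons. With the replicate number as a block, the counts were 4, 8 and 2 in the core particle and 5, 5 and 1 in the regulatory particle. Over all 11077 genes the block called 3633 lower, 4125 lower and 1346 higher in these comparisons. The medians of the regulatory particle were -0.18, -0.24 and 0.00. In oocytes against SSC, 11 of 12 core values and 12 of 15 regulatory values were negative, against 5958 of all 11077 genes. Both particles leaned the same way in the comparisons with SSC. In PFGC against oocytes, 11 of 12 core values and 7 of 15 regulatory values were positive, against 5443 of all 11077 genes. The difference between the particles was not tested.

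Psmb1, a beta ring subunit that has no cutting site of its own, separated the groups. Its log2 levels were 12.14, 12.11 and 12.20 in PFGC, 11.65, 11.81 and 11.78 in oocytes, and 12.63, 12.53 and 12.55 in SSC. The 3 groups did not overlap. Psmb1 was 1.34-fold lower in PFGC than in SSC (log2 fold change -0.42, SE 0.10, adjusted p = 0.00572) and 1.77-fold lower in oocytes than in SSC (-0.82, SE 0.10, adjusted p = 5.05e-05). Both calls held in all 25 alternatives. PFGC were 1.32-fold higher than oocytes (0.40, adjusted p = 0.0300 by limma), a call that was lost when any PFGC or oocyte array was left out (adjusted p from 0.0617 to 0.119). It was also lost without the arrays numbered 3 (0.0783), after 75th percentile scaling (0.0579) and without normalization, where the value was 0.13 (adjusted p = 0.633).

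Psmb4, a structural beta subunit, stood at 13.61, 13.69 and 13.61 in PFGC, 13.39, 13.42 and 13.46 in oocytes, and 13.92, 14.02 and 13.80 in SSC. Oocytes were 1.40-fold lower than SSC (log2 fold change -0.49, SE 0.10, adjusted p = 0.00214), against -0.15 (adjusted p = 0.470) without normalization. For PFGC the difference from SSC was -0.27 (adjusted p = 0.0478 by limma), and that call was lost in 14 of 25 alternatives, with -0.10 (adjusted p = 0.499) after 75th percentile scaling.

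The cutting sites lie in Psmb5, Psmb6 and Psmb7, whose activities are called chymotrypsin-like, caspase-like and trypsin-like. Psmb5 had log2 levels of 9.58, 9.72 and 9.63 in PFGC, 9.56, 9.56 and 9.38 in oocytes, and 9.72, 10.00 and 9.94 in SSC. It was 1.30-fold lower in oocytes than in SSC (log2 fold change -0.38, SE 0.12, adjusted p = 0.0157), a call lost without oocyte replicate 3, without SSC replicate 2, without the 3 arrays numbered 3 or without normalization. PFGC did not pass the test against SSC (-0.24, SE 0.12, adjusted p = 0.108). Psmb6 was at 12.59, 12.74 and 12.69 in PFGC, 12.52, 12.44 and 12.48 in oocytes, and 12.64, 12.82 and 12.60 in SSC, and no difference passed the test. Psmb7 was at 12.77, 12.87 and 12.64 in PFGC, 12.69, 12.82 and 12.51 in oocytes, and 13.14, 13.07 and 12.71 in SSC, and its groups overlapped. Its log2 fold change of -0.30 in oocytes against SSC had an adjusted p of 0.0970 by limma, and 0.0226 with the replicate number as a block. All 4 passing probes of Psmb7 gave values between -0.29 and -0.42 for that difference. The other beta genes, Psmb2 and Psmb3, were not called in any comparison. With the block, Psmb2 was lower in PFGC than in SSC (adjusted p = 0.0455) and Psmb3 in oocytes (adjusted p = 0.0351).

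In the alpha ring, which gates the barrel, Psma4 and Psma7 were lower in oocytes than in SSC and Psma2 and Psma5 were not called. Psma4 had log2 levels of 12.45, 12.54 and 12.42 in PFGC, 12.16, 12.43 and 12.17 in oocytes, and 12.79, 12.81 and 12.62 in SSC. The SSC arrays lay above all others. Oocytes were 1.40-fold lower than SSC (log2 fold change -0.49, SE 0.12, adjusted p = 0.00455), against -0.29 (adjusted p = 0.223) without normalization, and PFGC were at -0.27 (adjusted p = 0.0786, or 0.0323 with the block). Psma7 was 1.28-fold lower in oocytes than in SSC (-0.35, SE 0.11, adjusted p = 0.0169), and its second passing probe gave -0.38. That call was lost without oocyte replicate 3 or SSC replicates 1 or 2 (adjusted p from 0.0506 to 0.0564), and without normalization.

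Psma8, the alpha subunit that spermatocytes use, varied most. Its log2 levels were 7.63, 7.74 and 7.83 in PFGC, 5.37, 5.53 and 5.47 in oocytes, and 7.75, 8.85 and 7.79 in SSC. PFGC and SSC overlapped and oocytes lay below both. Psma8 was 6.37-fold lower in oocytes than in SSC (log2 fold change -2.67, SE 0.25, adjusted p = 7.42e-06) and 4.85-fold higher in PFGC than in oocytes (2.28, SE 0.25, adjusted p = 0.000381). Both calls held in all 25 alternatives, but the sizes did not: without background correction the log2 fold changes were -1.51 and 1.20, and with an offset of 50 they were -2.02 and 1.66. The difference between PFGC and SSC was -0.40 (SE 0.25, adjusted p = 0.215). A second Psma8 probe, detected on 0 of 3 oocyte arrays, put oocytes at least 5.09-fold lower than SSC and PFGC at least 4.13-fold higher than oocytes. Psma8 resembles Psma7 in sequence, and whether its probes also bind other alpha transcripts was not tested.

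SSC replicate 2 stood apart in Psma8. The summed level of spermatocyte and spermatid markers was also high there. Of 8 listed genes 5 were measured, and Tnp2, Prm1 and Acrv1 did not pass the detection filter. The summed linear level of the measured markers was 4570, 6140 and 5758 in PFGC, 572, 620 and 652 in oocytes, and 473, 8598 and 391 in SSC. Of these, Ldhc, a lactate dehydrogenase gene of the male germ line, was at log2 levels of 12.05, 12.49 and 12.40 in PFGC, 7.95, 8.11 and 8.18 in oocytes, and 5.92, 12.96 and 5.83 in SSC. The other measured markers differed less between SSC arrays. Spo11, which cuts DNA in meiosis, was at 8.28, 8.90 and 7.85 in SSC, Pgk2 at 4.42, 5.89 and 4.38, Tnp1 at 5.31, 5.57 and 5.40, and Sycp3 at 5.31, 5.69 and 5.36. Sycp3, a part of the synaptonemal complex, was highest in oocytes, at 8.02, 8.09 and 8.15. Their part in the result was not tested. Without SSC replicate 2, Psma8 was still lower in oocytes than in SSC (log2 fold change -2.31, adjusted p = 3.16e-07), and PFGC stood at -0.03 from SSC (SE 0.12, adjusted p = 0.832).

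Psmc3ip, the meiotic gene matched by its letters, was also lowest in oocytes. It had log2 levels of 10.01, 10.36 and 10.47 in PFGC, 9.16, 9.24 and 9.40 in oocytes, and 10.08, 10.72 and 10.28 in SSC. Oocytes lay below both other groups, which overlapped. It was 2.14-fold lower in oocytes than in SSC (log2 fold change -1.09, SE 0.18, adjusted p = 0.000409) and 2.02-fold higher in PFGC than in oocytes (1.01, SE 0.18, adjusted p = 0.00688). Without SSC replicate 2, the difference between oocytes and SSC was -0.92 (adjusted p = 0.000988).

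**Figure D3:**
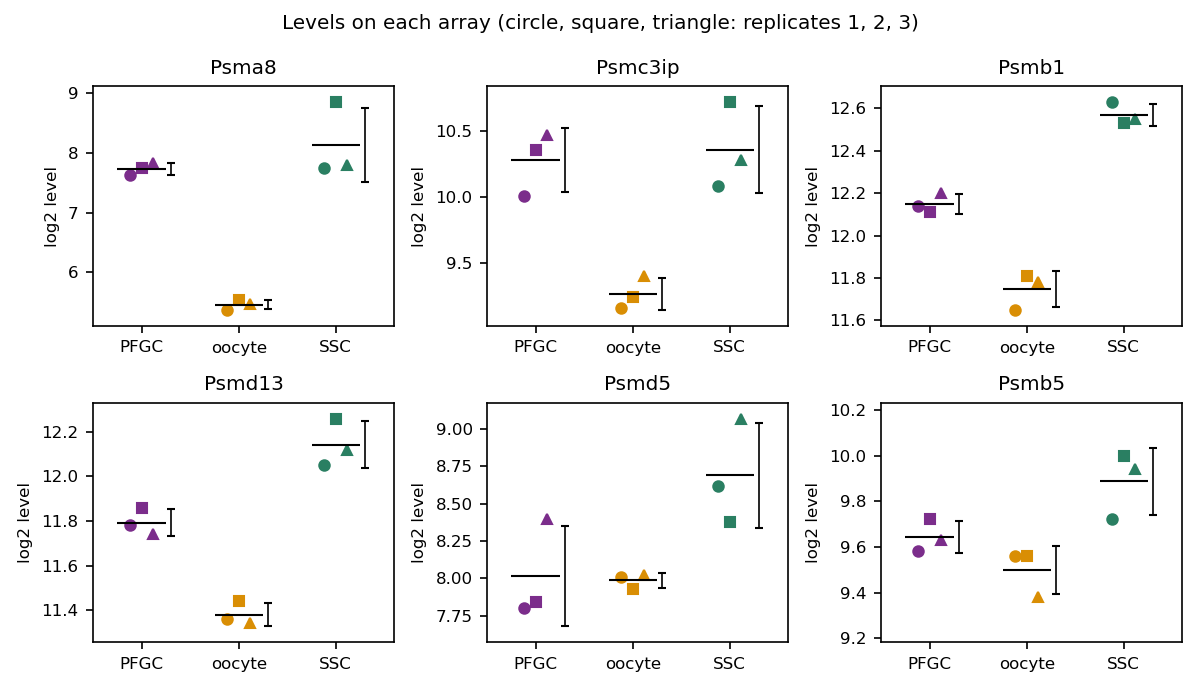
Log2 level (y axis, each panel with its own range) of 6 member genes on every array, by group (x axis), with the mean as a line and the SD as a bar. Psma8 and Psmc3ip were low on the 3 oocyte arrays, and Psmb1 separated the 3 groups.

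Among the ATPases, Psmc1, Psmc3 and Psmc5 were lower and Psmc2 and Psmc4 were not called. Psmc5 had log2 levels of 10.71, 10.84 and 10.89 in PFGC, 10.70, 10.83 and 10.76 in oocytes, and 11.28, 11.21 and 11.00 in SSC. Every SSC array lay above the others. The log2 fold change from SSC was -0.35 in PFGC (SE 0.12, adjusted p = 0.0281) and -0.40 in oocytes (SE 0.12, adjusted p = 0.0122), where it was -0.21 (adjusted p = 0.359) without normalization. The call in PFGC was lost without PFGC replicates 1 or 2 or SSC replicates 1 or 2 (adjusted p from 0.0584 to 0.101), with only those groups fitted (0.0593) and without normalization (0.0659).

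Psmc1 stood at 10.15, 10.39 and 10.48 in PFGC, 10.27, 10.36 and 10.57 in oocytes, and 10.86, 10.54 and 10.88 in SSC. It was 1.34-fold lower in PFGC than in SSC (log2 fold change -0.42, SE 0.14, adjusted p = 0.0328). In oocytes it was at -0.36 (adjusted p = 0.0502, or 0.0263 with the block). Psmc3 was 1.36-fold lower in oocytes than in SSC (-0.44, SE 0.11, adjusted p = 0.00541), against -0.24 (adjusted p = 0.252) without normalization, and PFGC were at -0.26 (adjusted p = 0.0738, or 0.0413 with the block). Leaving out PFGC replicates 1 or 2 or SSC replicates 1 or 3 ended the call of Psmc1 in PFGC (adjusted p from 0.0593 to 0.122).

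Of the non-ATPase subunits, Psmd13, a scaffold of the lid, was called in all 3 comparisons. Its log2 levels were 11.78, 11.86 and 11.74 in PFGC, 11.36, 11.44 and 11.34 in oocytes, and 12.05, 12.26 and 12.12 in SSC. The 3 groups did not overlap. It was 1.28-fold lower in PFGC than in SSC (log2 fold change -0.36, SE 0.11, adjusted p = 0.0165) and 1.70-fold lower in oocytes than in SSC (-0.77, SE 0.11, adjusted p = 0.000118). PFGC were 1.33-fold higher than oocytes (0.41, SE 0.11, adjusted p = 0.0340). The call between oocytes and SSC held in all 25 alternatives. That between PFGC and SSC was lost without SSC replicate 2 (adjusted p = 0.0565), without the arrays numbered 3 (0.0532) or without normalization (0.0623), and that between PFGC and oocytes was lost when any PFGC or oocyte array was left out (adjusted p from 0.0646 to 0.126) and was at 0.12 (adjusted p = 0.667) without normalization.

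Psmd2, a base subunit that docks ubiquitin carriers, had a dim probe with log2 levels of 5.76, 5.98 and 6.86 in PFGC, 6.54, 6.51 and 7.13 in oocytes, and 6.86, 6.99 and 7.13 in SSC. To 2 decimals PFGC replicate 3 equalled the lowest SSC array. Psmd2 was 1.74-fold lower in PFGC than in SSC (log2 fold change -0.79, SE 0.27, adjusted p = 0.0306, or 0.00336 with the block). That call was lost without PFGC replicates 1 or 2 or any SSC array (adjusted p from 0.0514 to 0.119), and with cyclic loess (0.0570).

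Psmd14, the deubiquitinase of the lid, was not called: it had 8.13, 8.24 and 8.76 in PFGC, 8.09, 8.19 and 8.70 in oocytes, and 8.68, 8.28 and 8.73 in SSC. The ubiquitin receptor gene Psmd4 was not called either, at 12.84 ± 0.04 in PFGC, 12.84 ± 0.01 in oocytes and 12.92 ± 0.10 in SSC (SD, n = 3). The remaining subunit genes Psmd1, Psmd6, Psmd7, Psmd8, Psmd11 and Psmd12 had log2 fold changes from SSC between -0.27 and 0.19, none of them called. With the block, Psmd12 was lower in oocytes than in SSC (adjusted p = 0.0475). Psmd7 depended on the probe, since a probe designed on a cDNA clone put oocytes at 0.42 from SSC (adjusted p = 0.131 among all kept probes) where the brightest gave -0.05.

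Of the chaperones, Psmd5 was lower in both sorted groups, with log2 levels of 7.80, 7.84 and 8.40 in PFGC, 8.01, 7.93 and 8.02 in oocytes, and 8.62, 8.38 and 9.07 in SSC. PFGC replicate 3 overlapped with SSC replicate 2, while all oocyte arrays lay below SSC. It was 1.59-fold lower in PFGC than in SSC (log2 fold change -0.67, SE 0.20, adjusted p = 0.0176) and 1.62-fold lower in oocytes than in SSC (-0.70, SE 0.20, adjusted p = 0.0120). The call in PFGC was lost without PFGC replicates 1 or 2 or SSC replicate 3 (adjusted p from 0.0555 to 0.0692). The call in oocytes held in all 25 alternatives.

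Psmd9 had 6.76, 6.52 and 7.35 in PFGC, 6.11, 6.11 and 6.61 in oocytes, and 6.67, 7.02 and 6.93 in SSC. Oocytes were at -0.59 from SSC (SE 0.22, adjusted p = 0.0373), but a second probe gave 0.00, and the mean of both probes gave -0.30 (adjusted p = 0.207). The call was lost in 10 of 25 alternatives. With the block, Psmd9 was higher in PFGC than in oocytes (adjusted p = 0.0371, against 0.105 without it). Psmd10, an assembly factor known as gankyrin, was not called, at 10.24, 10.29 and 10.38 in PFGC, 9.92, 10.10 and 10.16 in oocytes, and 10.22, 10.32 and 10.13 in SSC.

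Part of the spread within groups followed the replicate number. Psmd6, a lid gene near background, was at log2 levels of 5.08, 5.12 and 6.02 in PFGC, 4.93, 4.87 and 6.08 in oocytes, and 5.25, 5.06 and 6.31 in SSC, high on the array numbered 3 in each group. A term for replicate number 3, added after the values were seen, called 5 of 31 member genes higher and 1 lower on those arrays (19.4%, against 16.6% of all genes and 7.87% called higher). Psmd6 was 1.09 log2 units higher (SE 0.08, adjusted p = 0.00128), Psmd2 0.60, Psmd14 0.46, Psmd5 0.40 and Psmd8 0.30, and Psmb7 was lower at -0.27 (adjusted p = 0.0468 by limma). The labels do not say what a replicate number stands for.

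**Figure D4:**
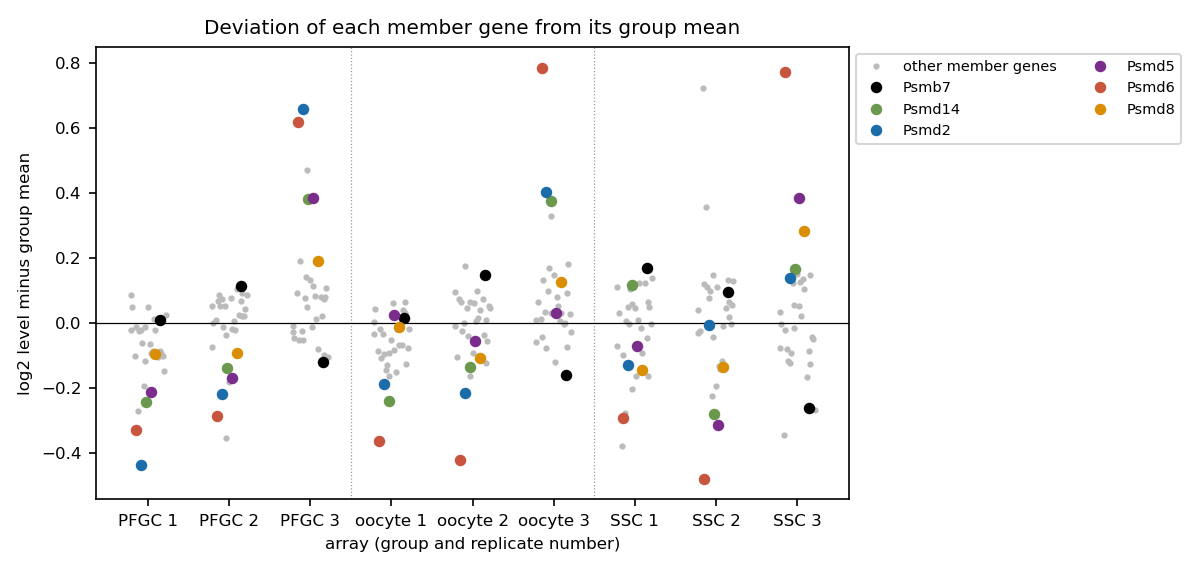
Deviation of each member gene's log2 level from its group mean (y axis) on each of the 9 arrays (x axis), with the 6 genes called for replicate number 3 in colour and the other 25 in grey. Psmd6 and Psmd2 were above their group mean on the array numbered 3 in all 3 groups, and Psmb7 was below it.

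Other genes of the ubiquitin-proteasome pathway were taken from fixed lists, chosen like the members with earlier results known, of which 27 of 31 genes on the array were measured. In PFGC against SSC 5 were higher and 4 lower, in oocytes against SSC 6 were higher and 5 lower, and in PFGC against oocytes 2 were higher and 2 lower. The called shares were 33.3%, 40.7% and 14.8%, against 52.1%, 61.7% and 12.3% of all genes, and the medians were -0.05, -0.05 and -0.10. With the replicate number as a block, 7 were higher and 6 lower, 8 higher and 7 lower, and 2 higher and 3 lower, where all genes had called shares of 60.6%, 68.9% and 21.1%. Among the genes that this added, Ecpas, a proteasome adaptor gene, and Akirin1 were lower than in SSC in PFGC (adjusted p = 0.00951 and 0.00266). Both were also lower in oocytes (adjusted p = 0.0458 and 0.0140). Ecpas depended on the probe, since without the block its other probes gave 0.04 and 0.17 in PFGC. In oocytes those probes gave 0.54 and 0.56, the latter with an adjusted p of 0.0343 by limma among all kept probes.

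The immunoproteasome replaces the cutting subunits of the core when interferon acts on a cell. Of its 5 genes listed with their activators, Psmb8 was the one higher without the block. It had log2 levels of 9.04, 8.82 and 9.29 in PFGC, 9.97, 10.02 and 9.92 in oocytes, and 6.16, 6.35 and 5.58 in SSC, with no overlap between groups. Psmb8 was 8.11-fold higher in PFGC than in SSC (log2 fold change 3.02, SE 0.20, adjusted p = 8.23e-07) and 15.3-fold higher in oocytes than in SSC (3.94, SE 0.20, adjusted p = 6.73e-08). Without background correction these log2 fold changes were 2.02 and 2.84, and with the mean of its probes 2.31 and 3.22. A second probe, detected on 6 of 9 arrays, had fitted values of 1.60 and 2.51. Psmb8 was 1.89-fold lower in PFGC than in oocytes (-0.92, adjusted p = 0.0158), a call lost without PFGC replicate 2 or oocyte replicates 1 or 2 (adjusted p from 0.0590 to 0.0730). Endothelial cell markers had summed levels of 2359 to 2703 in PFGC, 3815 to 4213 in oocytes and 617 to 690 in SSC. Of these markers 6 of 7 were measured, and Kdr did not pass the detection filter. Macrophage and leukocyte markers summed to 657 to 860 in PFGC, 1197 to 1539 in oocytes and 425 to 653 in SSC. Here 4 of 5 were measured, and Ptprc did not pass the detection filter. Fibroblast and feeder cell markers, 7 of 7 measured, summed to 19922 to 21942 in PFGC, 22650 to 23994 in oocytes and 29525 to 35952 in SSC. Their part in the Psmb8 difference was not tested. Psmb9 (0.35 and 0.52 against SSC) and Psmb10 (0.09 and 0.33) were not called, though Psmb10 was higher in oocytes with the block (adjusted p = 0.0482), and neither was the activator gene Psme1 (0.06 and 0.11). Its partner Psme2 was lower in PFGC (-0.52, adjusted p = 0.00735) and in oocytes (-0.69, adjusted p = 0.00104). Psme4, which encodes an activator abundant in testis, was higher in both (0.53, adjusted p = 0.00386, and 0.67, adjusted p = 0.000687). The call in PFGC was lost with the mean of its probes (0.34, adjusted p = 0.188) and without normalization (adjusted p = 0.150).

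Chaperones of core assembly were measured for 4 of 5 genes. Psmg1 had log2 levels of 9.72, 9.98 and 9.90 in PFGC, 9.27, 9.37 and 9.36 in oocytes, and 10.16, 10.45 and 10.32 in SSC. Psmg1 was lower than in SSC in PFGC (log2 fold change -0.45, adjusted p = 0.00976) and in oocytes (-0.98, adjusted p = 4.77e-05), and higher in PFGC than in oocytes (0.53, adjusted p = 0.0195). That last call was lost without PFGC replicates 2 or 3 or oocyte replicates 1 or 2 (adjusted p from 0.0584 to 0.0884), without the arrays numbered 3 (0.0743) and without normalization (0.326). Its partner Psmg2 was lower in PFGC (-0.53, adjusted p = 0.0143, or 0.0543 without PFGC replicate 1) and oocytes (-0.79, adjusted p = 0.00125). The maturation factor Pomp was lower in oocytes (-0.33, adjusted p = 0.0303) and was at -0.14 in PFGC (adjusted p = 0.338). Leaving out any oocyte array or SSC replicate 2 ended its call (adjusted p from 0.0535 to 0.0891), as did 75th percentile scaling (0.0735) and no normalization (0.547). Psmg3, another assembly chaperone, lay the other way at 0.39 from SSC in PFGC (adjusted p = 0.0967, or 0.00873 and higher with the block). In oocytes Psmg3 was at 0.09 from SSC (adjusted p = 0.685).

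Of 7 measured genes of shuttle factors and the unfoldase, 3 were higher than in SSC in each sorted group (4 with the block), against 24.5% of all genes in PFGC and 28.6% in oocytes. The 3 are the shuttle factors measured, which carry ubiquitin-tagged proteins to the proteasome. Ubqln4 was 2.04-fold higher in PFGC than in SSC (log2 fold change 1.03, SE 0.18, adjusted p = 0.000994) and 2.27-fold higher in oocytes. Rad23b (0.67 and 0.95) and Ubqln1 (0.56 and 0.71) were also higher than in SSC through their brightest probes. Other probes gave 0.13 to 0.49 for Rad23b and -0.07 and 0.08 for Ubqln1 in PFGC. The mean of its probes ended the Ubqln1 call in PFGC (0.19, adjusted p = 0.144), and without normalization neither Ubqln1 (0.0749) nor Rad23b (0.0629) was called there. The unfoldase gene Vcp was not called (-0.17 and -0.05). Its cofactor gene Nploc4 (0.37 and 0.26) was called higher with the block (adjusted p = 0.00904 and 0.0344).

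Of the transcription factors, Nfe2l1, which raises proteasome genes when the protease is short, was not called, with 11.29, 11.25 and 11.20 in PFGC, 11.26, 11.45 and 11.31 in oocytes, and 11.12, 11.28 and 11.13 in SSC. Nfe2l2, its stress-responsive relative, was 2.24-fold higher in oocytes than in SSC (log2 fold change 1.16, SE 0.22, adjusted p = 0.00119), and PFGC were at 0.31 from SSC (adjusted p = 0.274) and lower than oocytes (-0.85, adjusted p = 0.0367). The call between PFGC and oocytes was lost without PFGC replicates 1 or 2, any oocyte array or SSC replicate 1 (adjusted p from 0.0532 to 0.131), and with no filter on dim probes (0.0535). The deubiquitinase gene Usp14 was lower in PFGC than in SSC through a dim probe (-0.90, adjusted p = 0.0168), and its other probe gave -0.35 (adjusted p = 0.199 among all kept probes). The Usp14 call was lost without SSC replicates 1 or 2 (adjusted p = 0.0553 and 0.0566). With the block Usp14 was also lower in PFGC than in oocytes (-0.78, adjusted p = 0.0129). Uba6, a ubiquitin-activating enzyme gene, was the 1 gene measured of its list. It had 12.12, 12.30 and 11.72 in PFGC, 8.35, 8.50 and 8.09 in oocytes, and 12.17, 12.93 and 11.47 in SSC. Oocytes were 14.6-fold lower than SSC (-3.87, SE 0.31, adjusted p = 2.48e-06) and PFGC overlapped with SSC (-0.14, adjusted p = 0.733). That probe was designed on a cDNA clone, and the other Uba6 probe did not pass the detection filter.

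**Figure D5:**
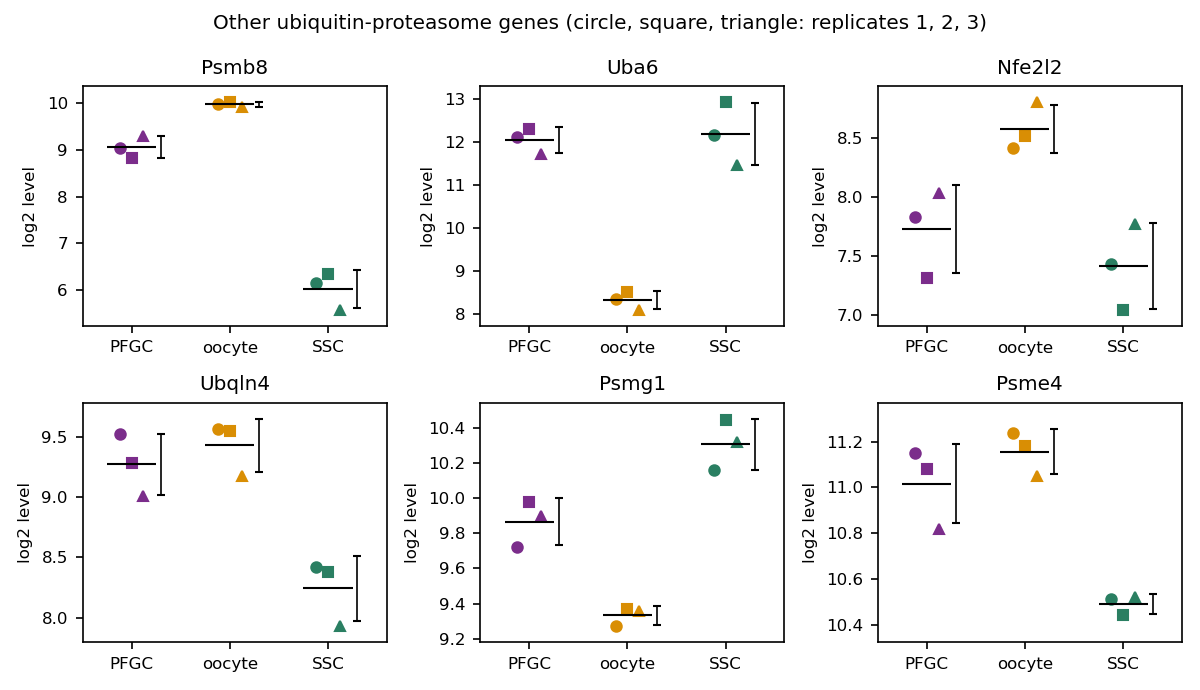
Log2 level (y axis, each panel with its own range) of 6 other ubiquitin-proteasome genes on every array, by group (x axis), with the mean as a line and the SD as a bar. Psmb8 was lowest on the 3 SSC arrays and Uba6 on the 3 oocyte arrays.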

How the data were processed

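Illumina arrays of 9 samples were scanned, and the first deposited table holds non-normalized intensity with a detection p-value for each probe, per the file headers. The submitters' processing notes name GenomeStudio, with a version not given in the sources used here. A second table deposited by the authors holds processed intensity with a median of 111.8 on every array. How it was scaled was not stated, and it served as an alternative. Fits to it gave the same log2 fold changes of Psma8 and Psmb8 as quantile normalization without background correction.

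The normexp correction of limma 3.58.1 (R 4.3.3) was applied, with an offset of 16 and the negative controls estimated through the detection p-values. Quantile normalization and log2 followed. Probes with detection p under 0.01 on at least 3 of 9 arrays were kept (19934), and each named gene was represented by its brightest kept probe (11077 genes). Symbols came from the platform annotation, updated through a RefSeq table of assembly GRCm38.p6. 1 limma fit held all 9 arrays and 3 groups. A gene was called at a Benjamini-Hochberg adjusted p under 0.05 over all genes. The number of arrays limits the precision: the median SE of a member's log2 fold change was 0.12.

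Arrays with the same replicate number deviated together (9 correlations across genes, 0.131 to 0.575, all above 0.1), although for replicate 2 another number correlated higher between oocytes and SSC (0.192 against 0.131) and between PFGC and oocytes (0.246 against 0.237). Hence a fit with the replicate number as a block is given where it changes a call. The pairing comes from the data and the shared numbers in the titles. Alternatives varied background correction, normalization, filter, probe choice, spread and samples. The fit was tested on simulated data.

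Members and lists were chosen with earlier results of these data known. Values on every array are given for the members with the 8 largest called changes per comparison and for Psma8, Psmc3ip, Psmb11 (not measured), the chaperones, Psmb5, Psmb6, Psmb7 and Psmd14. Of each pathway list, up to 4 called genes per comparison are named, and Nfe2l1 and Nfe2l2 in every case.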

Additional observations from a re-analysis of the deposited data

How the results depend on the processing

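Each result was recomputed under 25 alternatives, which are not all separate checks. The authors' processed values and no background correction gave the same log2 fold changes for Psma8 (-1.51 in oocytes against SSC). Leaving out an array of a group outside a comparison changes only the estimate of the spread. Of 23 calls of a member in a comparison, 0 changed direction and 8 kept their call in all of them. The 8 were Psmb1 in PFGC against SSC, Psma8, Psmb1, Psmc3ip, Psmd13 and Psmd5 in oocytes against SSC, and Psma8 and Psmc3ip in PFGC against oocytes. Without normalization, 4 members were called in PFGC against SSC and 5 in oocytes against SSC, and the medians were -0.11 in oocytes against SSC and -0.16 in PFGC against oocytes. That setting moved the median of all genes to -0.14, 0.08 and -0.24 in the 3 comparisons. After 75th percentile scaling, 2 members were called in PFGC against oocytes. With only the compared groups fitted, 4 were called in PFGC against SSC. Over all genes, array weights called 2878 and the replicate block 2334 in PFGC against oocytes, against 1358. The replicate block, which pairs arrays of the same number, called 10, 16 and 5 members, and the calls it changed among members stand beside their genes; it ended no member's call.

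With each array left out in turn, 2 to 6 members were called in PFGC against SSC, 10 to 13 in oocytes against SSC and 2 to 4 in PFGC against oocytes, and 531 to 1680 of all genes in the last. The medians were -0.21 to -0.10, -0.32 to -0.23 and 0.06 to 0.18. The count in PFGC against SSC was 2 without PFGC replicates 1 or 2 and 3 without SSC replicates 1 or 2. The count in PFGC against oocytes was 2 without PFGC replicates 1 or 2 or any oocyte array, and without PFGC replicate 3 it was 2 higher and 1 lower. The causes were not tested. The 6 genes without a passing probe were not measured.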
